A study of Mus musculus with 12 samples.

Results

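The proteasome is the large protease that degrades proteins tagged with ubiquitin. Its 20S core is a barrel of alpha and beta rings in which 3 beta subunits carry the protease sites. The 19S regulatory particle, made of a base with ATPase subunits and a lid with a deubiquitinating subunit, recognises, unfolds and feeds in the substrate. In cells exposed to interferon, inducible catalytic subunits can replace the constitutive ones to form the immunoproteasome, and when proteasome activity is low the transcription factor NRF1 (gene Nfe2l1) is known to raise most subunit genes together. The genes described here are the protein-coding genes of the deposited expression table whose name starts with Psma to Psmf followed by a digit, 46 of 54345 genes. They were sorted by their known place in the complex into 8 alpha and 7 constitutive beta genes of the core, 4 inducible or tissue-specific beta genes, 6 ATPase and 3 other base genes, 8 lid genes, 3 assembly chaperones of the base, and 6 activator genes including Psmf1. The last member, Psmc3ip, was caught by its name and encodes a partner of meiotic recombinases, not a proteasome subunit.

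mRNA-seq was made from H9c2(2-1) cells, labelled myoblast and wild type (WT), in 4 groups of 3 libraries, all taken at 6 h. Unt cells were untreated. DOX cells received doxorubicin, an anthracycline chemotherapy drug that is toxic to the heart. D_DXZ cells received doxorubicin with dexrazoxane, an iron chelator given as a heart protectant, and D_MgHCF cells received doxorubicin with the study's magnesium hexacyanoferrate nanocatalyst, a Prussian blue analogue. All comparisons among the treated groups are therefore among cells that also had doxorubicin. H9c2 is a line established from embryonic rat heart, whereas the organism label, gene identifiers and coordinates are of the mouse (GRCm38), and the effect of this on the values was not tested. Of the myoblast markers, Myod1, Myf5 and Myog were at 0 in the Unt libraries and Des was at 1.57, 1.36 and 1.46 FPKM, while Vim, which many mesenchymal cells express, was at 219.96, 242 and 268 in Unt and 869.9, 1119 and 1136 in DOX. Only these 2 of the 8 myoblast markers reached 1 FPKM in Unt, and the part of cell state in the results below was not tested. The fibroblast list summed to 35.8 to 37.1 FPKM in Unt against 109 to 135 in DOX and 74.3 to 118 in D_DXZ, while D_MgHCF libraries held 27.7 to 57.2, with 2 of its 5 markers at 1 FPKM or more in every group. The cardiomyocyte list summed to 9.77 to 11.2 FPKM in Unt against 3.19 to 5.88 in DOX and 3.06 to 4.14 in D_DXZ, while D_MgHCF libraries held 15.01 to 26.5, with 1 of its 8 markers at 1 FPKM or more. Both lists thus moved with the groups, and their part in the results was not tested. Leukocyte, endothelial and epithelial marker lists summed to at most 4.79, 0.989 and 1.37 FPKM in any library, and Cd68 was the only marker of the 3 lists at 1 FPKM or more on average in a group.

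Levels are FPKM, sequenced fragments scaled to gene length and library depth, which allow genes of different length to be compared. The deposited values corresponded to 16626514 to 19365119 reads on genes per library. Their library scaling was that of median ratios between genes, which left the median gene in place, so that the FPKM summed over all genes rose from 216899 to 230292 in Unt to 498756 to 627769 in DOX. Among genes with a mean FPKM of at least 1, the median log2 change between DOX and Unt was 0.05 as deposited, -0.69 when FPKM was set to the summed reads and -1.18 in TPM, a scale on which every library sums to the same total. Between D_MgHCF and DOX it was -0.09, 0.67 and 0.99. A statement that a proteasome gene was higher or lower is therefore relative to the median gene unless another scale is named. Less RNA in a cell and fewer cells cannot be told apart in such libraries. The third D_MgHCF library stood apart from the other 2, with Pearson correlations of log2 values of 0.957 and 0.974 against 0.988 between those 2. For some, but not all, of the genes for which it lay away from the other 2, values are given with and without it.

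In Unt cells, 42 of the 46 genes had a mean of at least 1 FPKM. The highest was the core gene Psmb1, at 203 ± 9.59 FPKM (SD, n = 3), followed by Psma6 (108 ± 3.88), Psmb4 (104 ± 6.08), the base ATPase gene Psmc5 (102 ± 8.17) and the base scaffold gene Psmd2 (89.0 ± 6.88). Psma6, Psmb4 and Psmc5 did not differ beyond their spread, nor did Psmd2 and Psmb5, at 88.7 ± 2.33. At the low end stood Psmb9 (1.33 ± 0.0556) and Psmb8 (0.432 ± 0.0817), 2 of the 3 inducible catalytic genes, whereas the third, Psmb10, was at 15.7 ± 2.29. Psma8, a testis-specific alpha gene, and Psme2b, a near copy of Psme2, were above 0 in only 2 libraries each and were not tested. Psme2b read 0, 0.0499 and 0 FPKM in Unt, 0, 0.372 and 0 in DOX and 0 in all D_DXZ and D_MgHCF libraries. The thymus-specific Psmb11 was above 0 in 9 libraries and passed the filter of 3 libraries above 0 largely through treated cells. That left 44 genes for the tests.

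Doxorubicin was followed by higher levels of most of the complex relative to the median gene. By limma on log2(FPKM + 1), 33 of 44 genes were higher and 1 was lower in DOX than in Unt at an adjusted p under 0.05, against 18.6% of all 25044 genes tested called higher and 19.9% called lower. In a fit limited to the 12434 genes at 1 FPKM or more in at least 3 libraries, larger shares were called, 4608 genes higher and 4471 lower. The median log2 fold change of the 44 was 1.07, against 0 over all genes tested. All 14 constitutive core genes were higher, by 0.97 to 1.91 on the log2 scale, and 13 of 17 base and lid genes were higher. The direction depended on the scale. With FPKM set to the summed reads 18 genes were higher and 6 lower, against 8.29% and 33.2% of all genes, and in TPM 11 were higher and 14 lower, against 4.44% and 40.8% of all genes. In both of those scales the 14 core genes stayed above the median gene, as did 14 and 15 of the 17 base and lid genes. With quantile normalization, which forces all libraries to 1 distribution, 18 were higher and 7 lower, against 16.6% and 17.5% of all genes, and 9 of the 14 core genes and 6 of the 17 base and lid genes lay above the median gene.

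**Figure D1:**
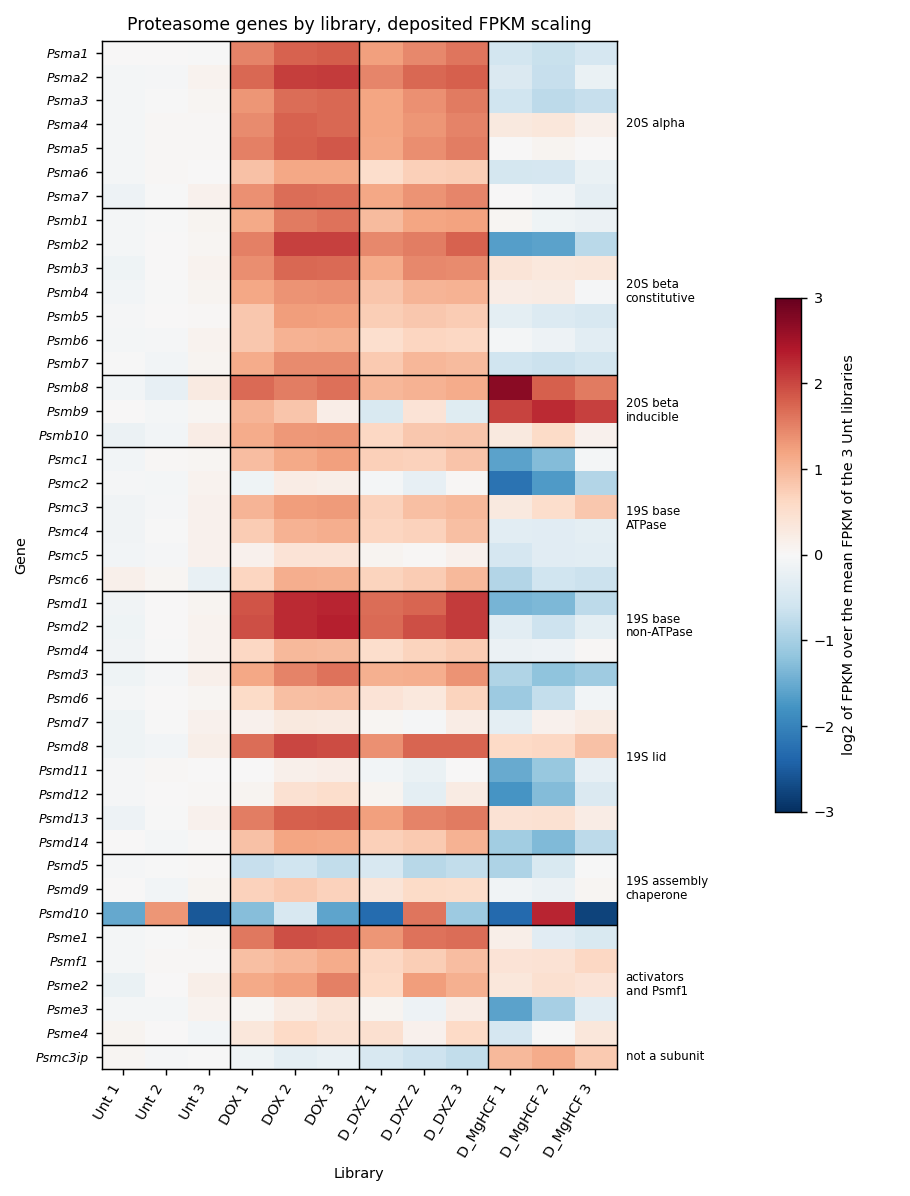
Level of the 43 proteasome genes above 0 in all 12 libraries, as log2 of FPKM over the mean of the 3 Unt libraries (colour scale, cut at 3 in either direction), with libraries as columns and genes as rows grouped by role. In the deposited scaling the core rows are red in the DOX and D_DXZ columns and pale or blue in the D_MgHCF columns, while in TPM only 6 of the 14 core genes were called higher in DOX.

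Among the alpha genes, which form the outer rings and the gate of the core, Psma2 changed most. Psma2 FPKM was 19.7, 19.9 and 22.1 in Unt, 68, 86.6 and 87.5 in DOX, 57.2, 67.8 and 71 in D_DXZ, and 15.3, 12.7 and 18 in D_MgHCF. Every DOX and D_DXZ library lay above every Unt library, and every D_MgHCF library lay below them, with a log2 fold change of 1.91 (SE 0.14, adjusted p = 1.17e-05) in DOX and -0.41 (SE 0.14, adjusted p = 0.0403) in D_MgHCF, both against Unt. Psma5 FPKM was 51.1, 54 and 54.2 in Unt, 152, 183 and 193 in DOX, 118, 139.7 and 155 in D_DXZ, and 53.3, 56.2 and 53.3 in D_MgHCF, so that its D_MgHCF libraries overlapped those of Unt while its DOX libraries were higher by 1.70 (SE 0.12, adjusted p = 1.09e-05). For Psma1, the values were 34.2, 34.5 and 33.7 in Unt, 95, 116 and 119.7 in DOX, 79.6, 93 and 104 in D_DXZ, and 23.1, 21.4 and 24 in D_MgHCF, a log2 difference of -2.22 (SE 0.11, adjusted p = 2.39e-06) between D_MgHCF and DOX. Psma3 has a processed pseudogene, Gm13835, that matched it at 100% over 685 bases. Gm13835 was assigned 57.9 ± 1.95 FPKM in Unt and 217 ± 41.9 in DOX (SD, n = 3). That is a higher FPKM than that of Psma3 itself, so the split between them is uncertain. Near copies at lower levels also rose in DOX for Psma5 and for the beta gene Psmb3. For Psma5 these were Gm12989, at 7.23 ± 0.446 FPKM in Unt and 28.5 ± 2.47 in DOX, and Gm8394, at 5.75 ± 0.477 and 18.8 ± 3.27. For Psmb3 it was Gm4950, at 7.13 ± 0.499 and 25.6 ± 5.45.

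The constitutive beta genes include the 3 protease sites, Psmb6 (caspase-like), Psmb7 (trypsin-like) and Psmb5 (chymotrypsin-like, the target of bortezomib). Psmb5 FPKM was 86.3, 88.8 and 91 in Unt, 155, 212 and 208 in DOX, 148, 156 and 150.3 in D_DXZ, and 73, 66.9 and 63.7 in D_MgHCF. Psmb6 read 72.8, 73.7 and 81.9 in Unt, 134, 157 and 160.4 in DOX, 108, 119.8 and 118 in D_DXZ, and 73.4, 68.6 and 60.9 in D_MgHCF. Psmb7 read 30.05, 28.3 and 32 in Unt, 65.5, 80.1 and 80.2 in DOX, 52.1, 60.1 and 58.3 in D_DXZ, and 19.97, 19.4 and 20.5 in D_MgHCF. All 3 were higher in every DOX library than in every Unt library, by 1.09, 0.97 and 1.29 on the log2 scale. In TPM the same differences were -0.27, -0.38 and -0.050, and with quantile normalization Psmb5 and Psmb6 were at -0.46 and -0.47, so their direction depended on the scaling. Psmb2, a structural beta gene, showed the widest swing of the core, with FPKM of 57.4, 60.4 and 62.7 in Unt, 172, 247 and 248 in DOX, 164, 176 and 206 in D_DXZ, and 19.2, 19.9 and 34.6 in D_MgHCF. Its groups did not overlap in DOX against Unt, at 1.85 (SE 0.22, adjusted p = 7.35e-05), or in D_MgHCF against Unt, at -1.31 (SE 0.22, adjusted p = 0.00119). Psmb3, also structural, was at 53.3, 59.1 and 63.4 in Unt, 154, 194 and 192 in DOX, 126, 159.6 and 156 in D_DXZ, and 76.5, 73 and 74.4 in D_MgHCF, higher than Unt in DOX (1.60, SE 0.12, adjusted p = 1.18e-05) and, by less, in D_MgHCF (0.35, SE 0.12, adjusted p = 0.0474), a call that was lost in TPM, at 0.20, and with voom on the recovered reads.

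Promoters were looked at for members that moved together. RefSeq promoters (250 bases before to 50 after a start, GRCm38.p6) were matched for 39 members with 42 promoters, and TGACNNNGC, the core of the antioxidant response element bound by NRF1 and NRF2, was searched on both strands. It was in 6 of the 42, or 14.3%, against 12.4% of all 32851 promoters, so the share of members was close to that of all genes. These are mouse sequences, and the promoters of the H9c2 cells, a rat line, were not examined. The upstream stretches of 2 of the catalytic genes, shown because Psmb5 and Psmb6 carry protease sites, hold the motif, given in capitals, 47 and 9 bases before the start. Psmb5 is read on the minus strand at chr14:54618009-54618067 and Psmb6 on the plus strand at chr11:70525323-70525356.
Psmb5: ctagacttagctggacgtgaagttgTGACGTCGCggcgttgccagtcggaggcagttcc
Psmb6: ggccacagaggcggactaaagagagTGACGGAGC
Psmd9, Psmd12 and Psmc6 also held it upstream, and in Psme4 it spanned the start. Psmd12 and Psme4 were not called in DOX. Psmd9, Psmc6, Psmb5 and Psmb6 were called higher there, as were 33 of all 44 members tested, but their sign turned in TPM. The promoters of Psmd1 and Psmd2, which had the largest rises, did not hold these letters in the window searched. Whether the motif bears on these levels was not tested.

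The base holds the ATPase ring, encoded by Psmc1 to Psmc6, and the large scaffold proteins. Psmd1 (RPN2) and Psmd2 (RPN1), which dock ubiquitin receptors and shuttle proteins, had the 2 largest rises of all members in DOX. Psmd1 FPKM was 15.1, 16.6 and 17.4 in Unt, 60.7, 77.7 and 80.2 in DOX, 52.5, 54.7 and 70.1 in D_DXZ, and 6.21, 6.42 and 9.56 in D_MgHCF. Psmd2 FPKM was 82, 89.2 and 95.8 in Unt, 341, 417 and 449.8 in DOX, 288, 338 and 382 in D_DXZ, and 71.7, 57.6 and 72.8 in D_MgHCF. No DOX library of either gene came near an Unt library, at log2 fold changes of 2.08 (SE 0.17, adjusted p = 1.34e-05) and 2.16 (SE 0.15, adjusted p = 1.09e-05), and the difference was called in TPM as well, at 0.77 and 0.80. Among the ATPase genes, Psmc3 was at 62.9, 66.4 and 73.5 in Unt, 137, 162 and 163 in DOX, 109, 126 and 132 in D_DXZ, and 83, 97.6 and 118 in D_MgHCF, higher than Unt in DOX by 1.18 (SE 0.14, adjusted p = 8.21e-05). Psmc1 was at 66.7, 72.3 and 73.8 in Unt, 136, 157 and 166 in DOX, 117, 114 and 129 in D_DXZ, and 23.3, 28.9 and 67.7 in D_MgHCF, with a log2 fold change of 1.09 (SE 0.30, adjusted p = 0.0143) in DOX. Both turned in TPM, to -0.18 and -0.26, and with quantile normalization, to -0.25 and -0.34. Psmc6 was at 35.2, 32.9 and 27.2 in Unt, 49.999, 67.3 and 66.4 in DOX, 50.1, 53.7 and 62.2 in D_DXZ, and 17.2, 21 and 20.3 in D_MgHCF, where DOX was higher than Unt by 0.92 (SE 0.15, adjusted p = 0.000466), but at -0.42 in TPM, -0.0093 over summed reads and -0.060 with quantile normalization, and D_MgHCF was lower, at -0.67 (SE 0.15, adjusted p = 0.00501). Psmc2 was the ATPase gene that did not pass the test in DOX, and its FPKM was 28.9, 28.2 and 31.7 in Unt, 27, 34.5 and 33.7 in DOX, 28.6, 25.1 and 30.6 in D_DXZ, and 6.42, 9.19 and 16 in D_MgHCF, a log2 difference of 0.090 (SE 0.24, adjusted p = 0.874).

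**Figure D2:**
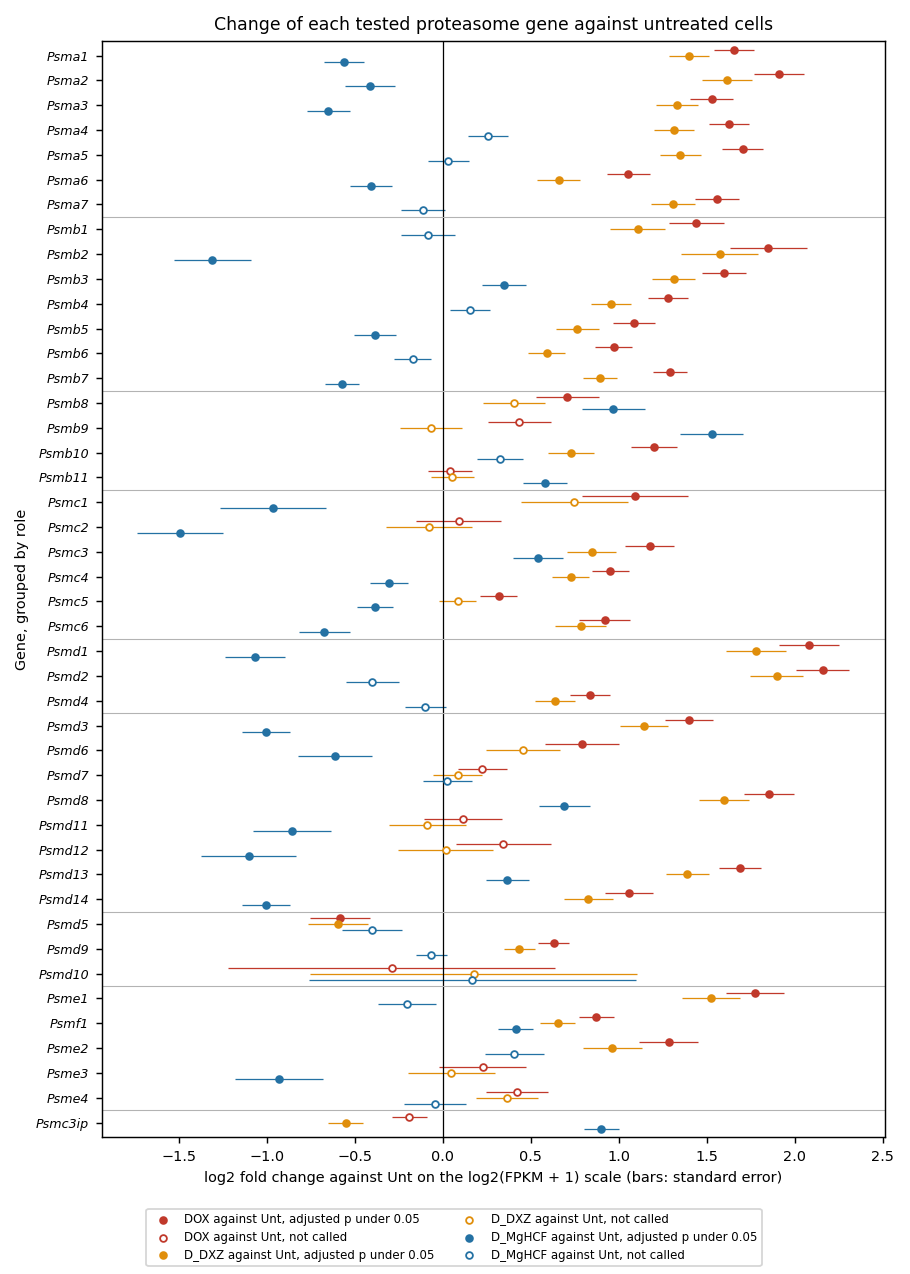
Log2 fold change of each of the 44 tested genes against Unt on the log2(FPKM + 1) scale, for DOX, D_DXZ and D_MgHCF, with bars of 1 standard error and filled points where the adjusted p was under 0.05. DOX and D_DXZ points lie to the right of 0 for the core genes and D_MgHCF points mostly to the left, a pattern given in deposited FPKM and shifted to the left in TPM, by -1.18 for the median gene in DOX.

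Lid genes split into those that rose with the core and those that did not pass the test. Psmd8, which is needed for lid assembly, was at 30.6, 31.5 and 37.9 in Unt, 106, 134 and 130.3 in DOX, 86.6, 112 and 111 in D_DXZ, and 50.1, 51.7 and 61.6 in D_MgHCF. Psmd13, another lid gene, was at 25, 27.6 and 30.3 in Unt, 80.7, 96.1 and 97.4 in DOX, 64.3, 77.5 and 80.8 in D_DXZ, and 37.4, 38.2 and 32.2 in D_MgHCF. Both were higher in DOX than in Unt, by 1.86 (SE 0.14, adjusted p = 1.18e-05) and 1.69 (SE 0.12, adjusted p = 1.09e-05). Psmd14, the deubiquitinase of the lid, was at 29.99, 28.5 and 30.7 in Unt, 54.9, 67.9 and 66.9 in DOX, 49, 51.4 and 61 in D_DXZ, and 14.4, 11.9 and 17.2 in D_MgHCF. Psmd3, a lid scaffold gene, was at 28.2, 30.4 and 34.4 in Unt, 69, 86.8 and 96 in DOX, 65.2, 65.6 and 78.3 in D_DXZ, and 16.6, 13.4 and 14.8 in D_MgHCF. For these 2 the D_MgHCF libraries lay below every Unt library, at log2 fold changes of -1.002 (SE 0.14, adjusted p = 0.000391) and -1.01 (SE 0.14, adjusted p = 0.000387). Psmd7, the inactive partner of Psmd14, was at 51.7, 56.2 and 62 in Unt, 61.9, 69 and 67.8 in DOX, 58.6, 55.4 and 66.5 in D_DXZ, and 46, 62 and 66.9 in D_MgHCF. It was the base or lid gene that passed the test in none of the 6 comparisons. Psmd11 was at 12.7, 13.2 and 13 in Unt, 13.1, 14.4 and 14.9 in DOX, 12.2, 11.3 and 13 in D_DXZ, and 4.55, 5.93 and 10.9 in D_MgHCF. Psmd12 was at 28.8, 29.96 and 30.5 in Unt, 31.5, 40.9 and 42.8 in DOX, 31.5, 24.3 and 35.6 in D_DXZ, and 8.73, 12 and 22.2 in D_MgHCF. Their differences between DOX and Unt were 0.11 and 0.34, neither called, and in TPM both were lower in DOX, at -1.21 and -1.002.

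Levels relative to the mean of the 14 constitutive core genes of the same library are the same under any scaling by 1 factor per library, such as the deposited one, summed reads or TPM, but not under quantile normalization. Over the 17 base and lid genes, the SD of log2 FPKM over Unt within a DOX library was 0.661 to 0.695, against 0.286 to 0.316 over the 14 core genes, so that the core genes shifted more evenly. Relative to the core mean, 12 of the 17 were lower and 4 higher in DOX than in Unt with no overlap of libraries. The same was true of 73.5% and 9.15% of the 14479 genes above 0 in all libraries, so the share of lower genes was close to the background. The 4 higher ones were Psmd2 (0.68), Psmd1 (0.66), Psmd8 (0.40) and Psmd13 (0.24), and those that fell furthest behind the core were Psmc2 (-1.40), Psmd11 (-1.37), Psmd7 (-1.26), Psmc5 (-1.17) and Psmd12 (-1.13). In D_MgHCF against DOX, 4 were lower and 8 higher relative to the core, against 3.29% and 77.0% of genes. Those 4 were Psmd1 (-1.54), Psmd2 (-0.80), Psmd3 (-0.71) and Psmd14 (-0.36). Psmd1 lay below the core mean in every group, at -1.77 in Unt, -1.11 in DOX and -2.65 in D_MgHCF on the log2 scale. With quantile normalization on log2(FPKM + 1), added after seeing the data, the change of Psmd1 relative to the core was 1.23 in DOX against Unt and -2.07 in D_MgHCF against DOX. The median of the 17 in D_MgHCF against DOX turned from 0.34 on that scale as deposited to -0.25.

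**Figure D3:**
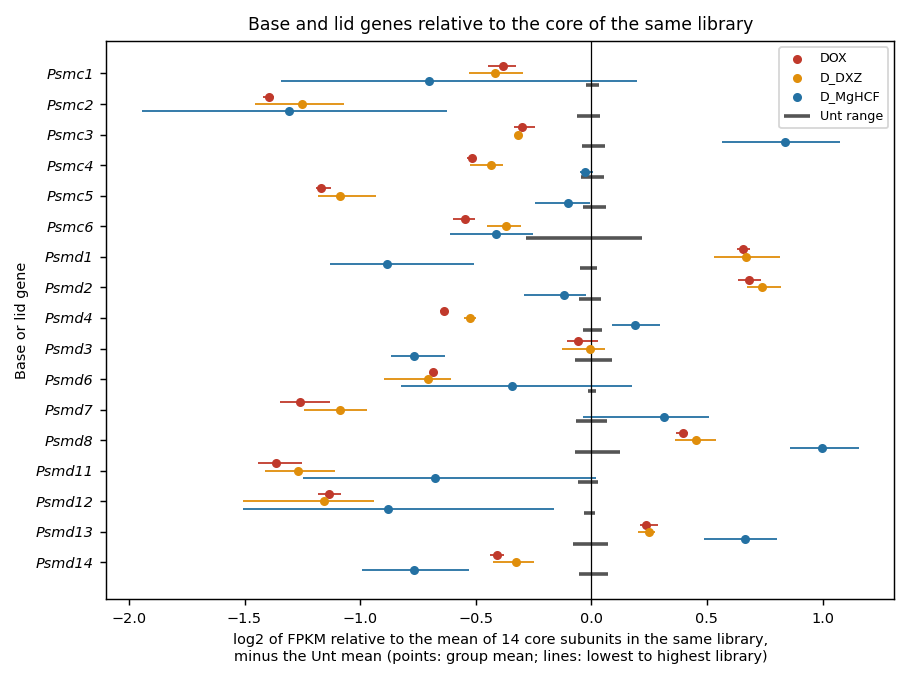
Level of the 17 base and lid genes relative to the mean of 14 core genes in the same library, as log2, minus the Unt mean (horizontal axis). Points are group means of 3 libraries, coloured lines run from the lowest to the highest library and grey bars give the Unt range; Psmc2, Psmd11, Psmd7, Psmc5 and Psmd12 lie furthest to the left in DOX, and Psmd1 lies at 0.66 in DOX and -0.88 in D_MgHCF.

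The 3 assembly chaperones of the base differed among themselves. Psmd9 FPKM was 5.32, 5.04 and 5.6 in Unt, 8.64, 9.16 and 8.59 in DOX, 7, 7.89 and 7.77 in D_DXZ, and 4.91, 4.69 and 5.57 in D_MgHCF, higher in DOX by 0.63 (SE 0.09, adjusted p = 0.000205), although at -0.61 in TPM and -0.20 over summed reads. Psmd5 FPKM was 8.2, 8.39 and 8.65 in Unt, 5.22, 5.56 and 5.06 in DOX, 6.01, 4.7 and 5.03 in D_DXZ, and 4.41, 6.12 and 8.4 in D_MgHCF. It was the only member called lower in DOX, at -0.58 (SE 0.17, adjusted p = 0.0193), and the call was lost without Unt replicate 2, Unt replicate 3 or DOX replicate 3. Psmd10, also known as gankyrin, was at 0.785, 5.68 and 0.39 in Unt, 0.942, 1.64 and 0.765 in DOX, 0.464, 6.91 and 1.07 in D_DXZ, and 0.454, 11.1 and 0.333 in D_MgHCF. Its second library was the highest in all 4 groups, by the least in DOX. The reads were 29, 200 and 14 in Unt, 21, 31 and 13 in DOX, 11, 133 and 21 in D_DXZ, and 14, 416 and 12 in D_MgHCF. No difference between groups was detectable over that spread.

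Activators open the core without ATP. Psme1 and Psme2 form the interferon-inducible PA28 ring, Psme3 forms its nuclear counterpart, Psme4 encodes PA200, and Psmf1 encodes the inhibitor PI31. Psme1 FPKM was 35.9, 36.7 and 39.1 in Unt, 111, 143 and 138 in DOX, 93.5, 116 and 119 in D_DXZ, and 42, 29.4 and 27 in D_MgHCF. Psme2 FPKM was 39, 45.6 and 50.6 in Unt, 99.6, 106 and 128 in DOX, 68.2, 107 and 94.5 in D_DXZ, and 56.9, 62.8 and 59.8 in D_MgHCF. Both were higher in DOX than in Unt in all 3 libraries, by 1.77 (SE 0.17, adjusted p = 2.1e-05) and 1.28 (SE 0.17, adjusted p = 0.000131), although Psme2 was at -0.064 in TPM, and its reads share a 99.4% match over 794 bases with Psme2b. Psmf1 was at 4.57, 4.87 and 4.87 in Unt, 8.88, 9.55 and 10.3 in DOX, 7.28, 7.95 and 9.11 in D_DXZ, and 6.33, 6.45 and 7.34 in D_MgHCF, higher in DOX by 0.87 (SE 0.10, adjusted p = 6.05e-05) though at -0.35 in TPM. Psme3 was at 37.4, 37.6 and 42 in Unt, 40.9, 46 and 50.8 in DOX, 41.1, 34.9 and 45.7 in D_DXZ, and 12.8, 19.6 and 31.3 in D_MgHCF. Psme4 was at 8.92, 8.54 and 7.97 in Unt, 10.7, 12.7 and 11.7 in DOX, 11.8, 9.29 and 12.7 in D_DXZ, and 5.97, 8.41 and 10.8 in D_MgHCF. Neither was called in DOX against Unt, at 0.23 and 0.42, and Psme3 was lower in D_MgHCF than in Unt, at -0.93 (SE 0.25, adjusted p = 0.0142).

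With dexrazoxane added to doxorubicin, most members lay above Unt and somewhat below DOX in the deposited scaling, while in TPM more of them lay below Unt than above it. Against Unt, whose libraries also serve the DOX comparison, 29 genes were higher and 2 lower in D_DXZ, the 2 being Psmd5 and Psmc3ip, against 15.9% of all genes called higher and 18.0% lower. In the fit limited to the 12434 genes at 1 FPKM or more, 4079 of those genes were higher and 4323 lower. The median log2 fold change of the 44 was 0.76, and in TPM 5 were higher and 19 lower, against 3.65% and 40.3% of all genes. Directly against DOX, limma called 0 of the 44 and 0% of all genes, and voom on the recovered reads also called 0. At an unadjusted p under 0.05, 16 were lower and 0 higher, against 4.97% of all genes lower and 4.56% higher. In deposited FPKM 42 of the 44 differences lay below 0, and the share of all genes below 0 is not given. Their median was -0.27, against -0.08 for the median gene with a mean of at least 1 FPKM. In TPM the median of the 44 was -0.09, against 0.07 for the median gene. With quantile normalization it was -0.04, and 27 of the 44 lay below the median gene. Of the 16, 9 were core genes, from -0.26 for Psma1 to -0.40 for Psmb7. No member was thus called different with dexrazoxane, which does not show that the levels were alike.

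In deposited FPKM, subunit levels were lower with the nanocatalyst than with doxorubicin alone, and for the core genes no scaling but quantile normalization called any of them higher. The DOX libraries in this comparison are those compared with Unt above. In D_MgHCF against DOX, 37 genes were lower and 3 higher, against 20.1% and 31.4% of all genes, with a median log2 fold change of -1.29. In the fit limited to the 12434 genes at 1 FPKM or more, 4877 of those genes were lower and 4462 higher. All 14 core genes were lower, from -1.13 for Psmb4 to -3.16 for Psmb2, as were 16 of the 17 base and lid genes, led by Psmd1 (-3.15, SE 0.17, adjusted p = 2.39e-06), Psmd2 (-2.56, SE 0.15, adjusted p = 2.62e-06) and Psmd3 (-2.41, SE 0.14, adjusted p = 2.51e-06). In TPM 15 were lower and 11 higher, against 6.75% and 53.9% of all genes, and the core count was 9 lower and 0 higher. With FPKM set to the summed reads 22 were lower and 7 higher, against 9.59% and 49.4% of all genes, and 13 of the 14 core genes were lower. The 3 higher genes were Psmb9, Psmb11 and Psmc3ip. Psmb2, Psmd1 and Psmd3 remained lower in TPM, at -1.98, -2.06 and -1.25. Against D_DXZ, 34 genes were lower, 4 higher and 6 not called in D_MgHCF, beside 48.4% of all genes called in either direction, 7358 higher and 4757 lower of 25044. In the fit limited to 12434 genes, 4071 of those genes were higher and 4673 lower. In TPM 13 members were lower and 14 higher, beside 57.3% of all genes called, 12801 higher and 1559 lower.

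Against untreated cells, D_MgHCF held 19 lower and 9 higher genes, beside 15.7% and 24.3% of all genes, at a median of -0.19. In the fit limited to the 12434 genes at 1 FPKM or more, 3714 of those genes were lower and 3064 higher. In TPM 24 members were lower and 5 higher, against 19.2% and 26.6%. The lower count was 12 without Unt replicate 3. It also fell when only these 2 groups were fitted, as did that of all genes, from 3941 to 2869 of 25044. The main fit shared 1 spread per gene over the 4 groups, although some genes spread more in D_MgHCF. Psmc1 was at 40.0 ± 24.2 FPKM in D_MgHCF and 70.9 ± 3.71 in Unt (SD, n = 3). Of the 17 base and lid genes 11 were lower, and the largest difference was that of Psmc2, at -1.49 (SE 0.24, adjusted p = 0.00104), followed by Psmd12 (-1.10), Psmd1 (-1.07), Psmd3 (-1.01) and Psmd14 (-1.002). Of the 14 core genes 7 were lower, from -0.38 for Psmb5 to -1.31 for Psmb2. The third D_MgHCF library was the nearest to Unt for Psmc1, Psmc2, Psmd6, Psmd11, Psmd12 and Psme3. Without it the log2 fold change of Psmc1 went from -0.96 to -1.41, that of Psmc2 from -1.49 to -1.82 and that of Psmd6 from -0.61 to -0.87. That of Psmd11 went from -0.86 to -1.17, that of Psmd12 from -1.10 to -1.45 and that of Psme3 from -0.93 to -1.25. All were called lower both ways in the fit of all 4 groups. Psmc3ip, the gene that is no subunit, was at 12.2, 11.4 and 11.6 in Unt, 10.8, 9.6 and 10.1 in DOX, 8.42, 7.68 and 7 in D_DXZ, and 23.1, 25.4 and 20.1 in D_MgHCF, and it was higher in D_MgHCF than in Unt by 0.90 (SE 0.10, adjusted p = 0.000118). It shares 385 bases of its span with Mlx on the opposite strand.

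**Figure D4:**
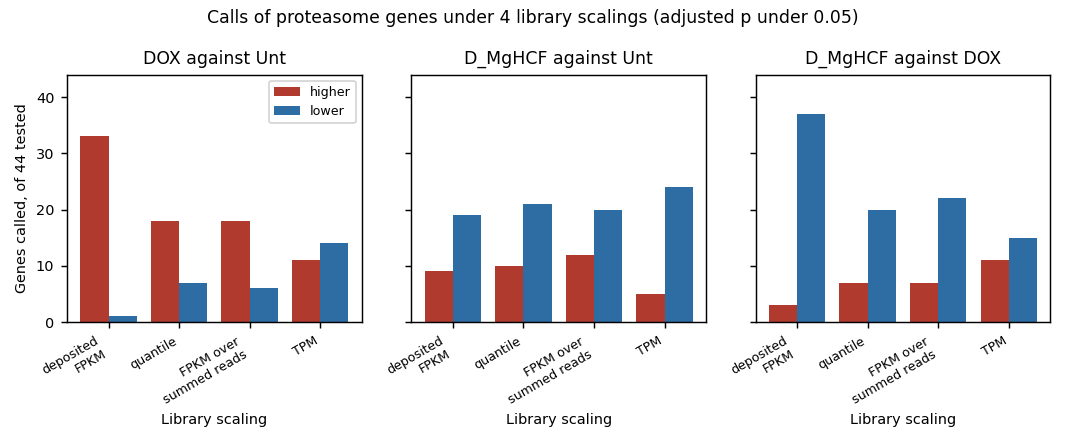
Number of the 44 tested genes called higher (red) and lower (blue) at an adjusted p under 0.05 in 3 comparisons, under the deposited FPKM, quantile normalization, FPKM set to the summed reads, and TPM. In DOX against Unt the counts go from 33 higher and 1 lower to 11 higher and 14 lower, while in D_MgHCF against Unt lower genes outnumber higher ones in all 4.

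In deposited FPKM, Psmb8 and Psmb9 did not fall from DOX to D_MgHCF as their constitutive partners did. Psmb10 did fall and was called lower, at a log2 fold change of -0.88, and its sign turned in TPM and over the summed reads. Psmb8 (LMP7) and Psmb9 (LMP2) lie beside each other on chromosome 17, at 34197721 to 34201454 and 34181988 to 34187764 (GRCm38), within the histocompatibility region, and Psmb10 (MECL1) lies on chromosome 8 at 105935735 to 105938444. Psmb8 FPKM was 0.407, 0.366 and 0.524 in Unt, 1.4, 1.25 and 1.36 in DOX, 0.86, 0.892 and 0.931 in D_DXZ, and 2.84, 1.51 and 1.28 in D_MgHCF. These are few reads, 28, 24 and 35 in the Unt libraries and 163, 105 and 86 in those of D_MgHCF. Every D_MgHCF library exceeded every Unt library, at a log2 fold change of 0.97 (SE 0.18, adjusted p = 0.0021), and DOX was higher than Unt by 0.71 (SE 0.18, adjusted p = 0.00874), a call that was lost in TPM, at 0.19, and over summed reads, at 0.29. Psmb9 FPKM was 1.34, 1.27 and 1.38 in Unt, 2.68, 2.36 and 1.51 in DOX, 0.965, 1.75 and 1.02 in D_DXZ, and 5.39, 6.26 and 5.51 in D_MgHCF. All 3 D_MgHCF libraries lay above all other libraries, at 1.53 (SE 0.18, adjusted p = 0.000157) against Unt and 1.09 (SE 0.18, adjusted p = 0.0005) against DOX. Psmb9 shares 212 bases with Tap1 on the opposite strand, and Tap1 was at 7.84 ± 0.688 FPKM in Unt and 18.7 ± 11.2 in D_MgHCF (SD, n = 3), so without strand a part of the reads could belong to either. Psmb10 FPKM was 13.9, 14.9 and 18.3 in Unt, 34.2, 38.4 and 39.2 in DOX, 23.9, 27.5 and 28.1 in D_DXZ, and 19.2, 23.2 and 17.2 in D_MgHCF, highest in DOX, with 1.20 (SE 0.13, adjusted p = 4.4e-05) against Unt, which turned to -0.11 in TPM, and 0.32 (SE 0.13, adjusted p = 0.0714) in D_MgHCF against Unt, not called. Psmb11 was at 0.0249, 0 and 0 in Unt, 0.0275, 0.0325 and 0.0541 in DOX, 0, 0.0637 and 0.0781 in D_DXZ, and 0.874, 0.533 and 0.196 in D_MgHCF, or 88, 65 and 23 reads in D_MgHCF against 3, 0 and 0 in Unt.

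The ratio of each inducible gene to its constitutive partner within a library is the same under any scaling by 1 factor per library, but not under quantile normalization. Psmb8 was 0.471, 0.412 and 0.575% of Psmb5 in Unt, 0.902, 0.591 and 0.654% in DOX, 0.580, 0.572 and 0.619% in D_DXZ, and 3.89, 2.25 and 2.01% in D_MgHCF. Psmb9 was 1.84, 1.72 and 1.68% of Psmb6 in Unt, 2.00, 1.51 and 0.943% in DOX, 0.895, 1.46 and 0.869% in D_DXZ, and 7.34, 9.12 and 9.05% in D_MgHCF. Psmb10 was 46.2, 52.8 and 57.1% of Psmb7 in Unt, 52.2, 47.9 and 48.9% in DOX, 45.9, 45.8 and 48.2% in D_DXZ, and 96.3, 120 and 84.2% in D_MgHCF. For all 3 pairs, every D_MgHCF library exceeded every library of the other 3 groups, by 5.40-, 4.85- and 1.91-fold over Unt and 3.70-, 5.98- and 2.00-fold over DOX. Two-sided exact permutation tests gave p = 0.1 for each, the smallest that 3 against 3 libraries allow, and 0.164 after Benjamini-Hochberg adjustment over the 18 ratio comparisons made. Relative to the core mean, 77.0% of 14479 genes were also higher in D_MgHCF than in DOX with no overlap of libraries. The direction of the rise against DOX was therefore shared by most genes and not particular to the inducible ones. No share of all genes is given over each partner alone or against Unt. Only Psmb8 over Psmb5 was above Unt in all 3 DOX libraries, 1.46-fold, with the same exact p of 0.1, and with a pseudocount of 1 that difference changed sign. With quantile normalization of log2(FPKM + 1), the log2 differences of the 3 ratios in D_MgHCF were 1.30, 1.82 and 1.21 against Unt, and -0.030, 0.59 and 0.81 against DOX, so that the Psmb8 ratio was no longer higher in D_MgHCF than in DOX.

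**Figure D5:**
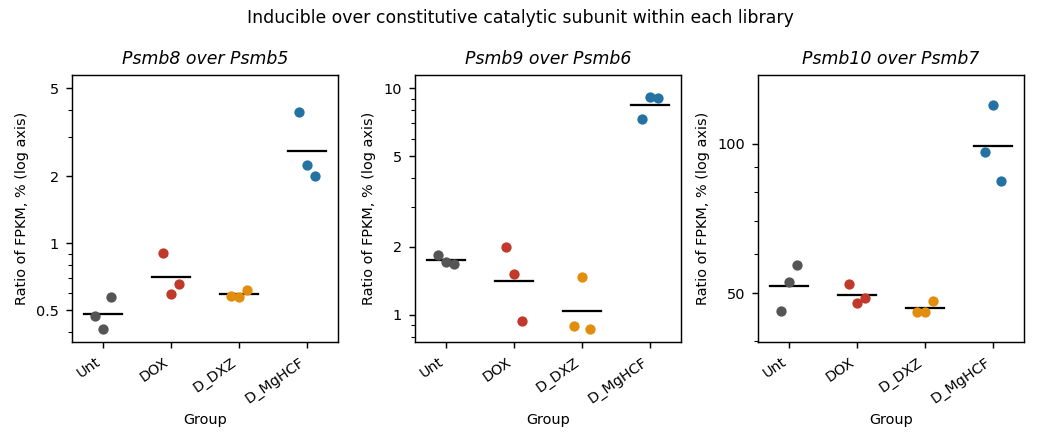
FPKM of each inducible catalytic gene as a percentage of its constitutive partner in the same library (log axis), with 1 point per library and a line at the geometric mean of each group. The D_MgHCF points lie at 2.01 to 3.89% for Psmb8 over Psmb5, 7.34 to 9.12% for Psmb9 over Psmb6 and 84.2 to 120% for Psmb10 over Psmb7, above all points of the other groups. Relative to the core mean, 77.0% of genes were likewise higher in D_MgHCF than in DOX with no overlap of libraries.

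As a share of all reads on genes, the 14 core genes took 21.9 to 22.9 reads per 10000 in Unt. The same share was 30.8 to 33.2 in DOX and 28.8 to 29.8 in D_DXZ, whereas D_MgHCF libraries held 19.5 to 21.1. Each treated group lay apart from Unt, and DOX and D_DXZ lay above it. In TPM, which weighs genes by length, the 46 genes summed to 0.824 to 0.863% of all transcripts in Unt. DOX libraries held 0.798 to 0.806%, D_DXZ libraries 0.705 to 0.764% and D_MgHCF libraries 0.554 to 0.796%, so on that scale no treated group exceeded Unt. The 14 core genes alone were at 0.418 to 0.431% in Unt and 0.434 to 0.447% in DOX. The 17 base and lid genes took 29.3 to 31.5 reads per 10000 in Unt against 37.8 to 39.9 in DOX and 34.8 to 39.1 in D_DXZ, while D_MgHCF libraries held 20.01 to 29.4. In TPM the order of Unt and DOX was the other way, at 0.329 to 0.350% in Unt and 0.293 to 0.297% in DOX.

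Genes that build or serve the complex but lie outside the name rule were counted from a list of 34. In DOX against Unt 13 were higher and 11 lower, with a median of 0.18, beside 18.6% and 19.9% of all genes. In the fit limited to the 12434 genes at 1 FPKM or more, 4608 of those genes were higher and 4471 lower, shares close to those of the list. In D_MgHCF against DOX 7 of the list were higher and 20 lower, beside 31.4% and 20.1% of all genes. Of the 12434 genes, 4462 were higher and 4877 lower there. Pomp, the maturation factor of the core, was at 10.5, 10.7 and 10.9 in Unt, 52.1, 67.6 and 64.9 in DOX, 41.4, 51.8 and 51.1 in D_DXZ, and 20.04, 15.9 and 10.8 in D_MgHCF, higher in DOX by 2.41 (SE 0.19, adjusted p = 1.22e-05) and in D_MgHCF lower than in DOX, at -1.95 (SE 0.19, adjusted p = 2.08e-05). The alpha-ring chaperones differed from it. Psmg1 was at 23.1, 24.9 and 27.6 in Unt, 19.1, 21.2 and 25.1 in DOX, 17.9, 16.7 and 17.4 in D_DXZ, and 7.12, 7.72 and 7.79 in D_MgHCF, with -0.20 in DOX against Unt, not called, and -1.61 (SE 0.10, adjusted p = 1.15e-05) in D_MgHCF against Unt. Psmg2 was at 25.5, 22.6 and 24.6 in Unt, 10.9, 13.2 and 15.8 in DOX, 16.2, 12.8 and 11.7 in D_DXZ, and 7.91, 9.64 and 11.8 in D_MgHCF, lower in DOX, at -0.83 (SE 0.17, adjusted p = 0.00221). Psmg3 was at 3.57, 3.77 and 4.17 in Unt, 0.729, 0.808 and 1.17 in DOX, 1.11, 0.58 and 0.802 in D_DXZ, and 1.89, 2.15 and 2.55 in D_MgHCF, lower in DOX, at -1.35 (SE 0.16, adjusted p = 6.41e-05). Its partner Psmg4 was at 35.7, 37.3 and 40.6 in Unt, 44.5, 51.5 and 59.5 in DOX, 46, 48.1 and 50.9 in D_DXZ, and 25.7, 21.2 and 15.1 in D_MgHCF, not called there at 0.44 (adjusted p = 0.0661). None of these 4 chaperones was called higher in DOX under any of the 4 scalings.

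Adrm1, a ubiquitin receptor of the base, was at 16.2, 18.8 and 21.1 in Unt, 7.51, 6.14 and 6.56 in DOX, 7.96, 5.87 and 6.07 in D_DXZ, and 9.51, 14.5 and 24.5 in D_MgHCF, lower in DOX, at -1.35 (SE 0.27, adjusted p = 0.00195), against the direction of the base genes. Nfe2l1, the gene of NRF1, was at 93.8, 97.8 and 104 in Unt, 65.7, 58.8 and 61.3 in DOX, 53.8, 68.7 and 51.6 in D_DXZ, and 165, 160.1 and 86.3 in D_MgHCF. It was lower in DOX than in Unt, at -0.66 (SE 0.22, adjusted p = 0.0347), and higher in D_MgHCF than in DOX, at 1.08 (SE 0.22, adjusted p = 0.00207), the reverse of the order of the core genes. Without the third D_MgHCF library the difference from DOX was 1.38. Against Unt, Nfe2l1 in D_MgHCF was at 0.42, not called, with that library and at 0.72, called higher, without it. Adrm1 in D_MgHCF against Unt went from -0.29, not called, to -0.62, called lower, without it. The protein level and activity of NRF1 were not measured by these libraries.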

How the data were processed

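Values of 12 mRNA-seq libraries were taken as deposited. Per the labels, libraries were made from total RNA by poly(A) selection with a NEBNext Ultra kit, and the submitters' processing notes name HISAT2 2.0.5 and GRCm38. The counting program, its strand setting and the annotation release are not given in the sources used here. The deposited FPKM were computed by the authors from read counts with a scaling between libraries. FPKM times gene length fell on whole multiples of 1 step in each library for 100% of values (tolerance 0.01 read), which gave back 16626514 to 19365119 reads per library. From there, log2(FPKM + 1) of 25044 genes above 0 in at least 3 of 12 libraries was fitted with limma 3.58.1 (trend, R 4.3.3) with 1 mean per group, and p-values were Benjamini-Hochberg adjusted over all genes. Fold changes on this scale understate the change of low genes. The fit was tested on simulated data. Nothing in the labels says that replicates came from separate cultures, so p-values measure the spread between libraries, which may be technical. Ratios within libraries were compared by exact two-sided permutation. Near-identical copies (at least 95% over 150 bases) were sought with BLAST 2.17.0, and 20 members had one. The genes described one by one were, per role, the 2 with the largest change in DOX against Unt and in D_MgHCF against DOX among those called with a mean of at least 1 FPKM, all inducible catalytic genes and their partners, all activators and Psmf1, members at 1 FPKM or more in Unt that were not called in DOX against Unt, and Nfe2l1, Psmg1 to Psmg4, Pomp and Adrm1. Psmb11, Irf1, Tap1, Tap2, Nlrc5, B2m, Akirin2 and Ipo9, outside this rule, and other members named in passing, were chosen with their values known. The members and lists were chosen with earlier results of these data known. Alternatives were TPM, FPKM over summed reads, quantile normalization, other pseudocounts and filters, a fit of the compared groups alone, a replicate block, leaving out each library and, added after seeing the data, voom on the recovered reads and quantile normalization of the quantities within a library.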

Additional observations from a re-analysis of the deposited data

How the results depend on the processing

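The library scaling moved more results than any other setting tried. A fold change of a member described one by one changed sign in these cases, on the log2 scale, and the cause was not tested beyond the shift of all genes given above. For D_MgHCF against DOX with quantile normalization, the values were 0.12 for Psmb3, 0.78 for Psmc3, 0.072 for Psmd8, 0.34 for Psme2, 0.17 for Psmb6 and 0.93 for Psmd7. For DOX against Unt in TPM, the values were -0.11 for Psmb10, -0.18 for Psmc3, -0.26 for Psmc1, -0.61 for Psmd9, -0.064 for Psme2, -0.050 for Psmb7, -0.42 for Psmc6, -0.28 for Psmd14, -1.12 for Psme3, -0.27 for Psmb5, -0.38 for Psmb6, -0.35 for Psmf1, -0.87 for Psme4, -1.13 for Psmd7, -1.002 for Psmd12, -1.26 for Psmc2, -1.21 for Psmd11 and -0.91 for Psmg4. For D_MgHCF against DOX in TPM, the values were 0.30 for Psmb10, 0.58 for Psmc3, 0.040 for Psmd8, 0.39 for Psmd9, 0.33 for Psme2, 0.018 for Psme3, 0.065 for Psmb6, 0.67 for Psmf1, 0.68 for Psme4, 1.01 for Psmd7, 0.13 for Psmd11 and 0.75 for Psmg2. For D_MgHCF against DOX over the summed reads, the values were 0.056 for Psmb10, 0.33 for Psmc3, 0.15 for Psmd9, 0.081 for Psme2, 0.41 for Psmf1, 0.41 for Psme4 and 0.76 for Psmd7. For DOX against Unt with quantile normalization, the values were -0.25 for Psmc3, -0.34 for Psmc1, -0.060 for Psmc6, -0.46 for Psmb5, -0.47 for Psmb6, -0.98 for Psmd7 and -0.57 for Psmg4. For DOX against Unt over the summed reads, the values were -0.20 for Psmd9, -0.0093 for Psmc6, -0.71 for Psmd7, -0.83 for Psmc2, -0.77 for Psmd11 and -0.49 for Psmg4. In TPM, the members called numbered 11 higher and 14 lower in DOX against Unt, 5 higher and 19 lower in D_DXZ against Unt, 5 higher in D_MgHCF against Unt, 11 higher and 15 lower in D_MgHCF against DOX and 14 higher and 13 lower in D_MgHCF against D_DXZ. With quantile normalization, the members called numbered 18 higher and 7 lower in DOX against Unt, 14 higher and 9 lower in D_DXZ against Unt, 7 higher and 20 lower in D_MgHCF against DOX and 9 higher and 18 lower in D_MgHCF against D_DXZ. Over the summed reads, the members called numbered 18 higher and 6 lower in DOX against Unt, 15 higher and 6 lower in D_DXZ against Unt, 7 higher and 22 lower in D_MgHCF against DOX and 10 higher and 21 lower in D_MgHCF against D_DXZ. When a 2-fold change was also asked, the members called numbered 0 lower in DOX against Unt, 15 higher and 0 lower in D_DXZ against Unt, 1 higher and 6 lower in D_MgHCF against Unt and 2 higher in D_MgHCF against D_DXZ. When only the compared groups were fitted, the members called numbered 2 lower in DOX against Unt, 10 lower in D_MgHCF against Unt and 2 higher in D_MgHCF against D_DXZ. At an unadjusted p under 0.05, the members called numbered 16 lower in D_DXZ against DOX. With a pseudocount of 1 on the ratios, the log2 difference was -0.38 for Psmb8 over Psmb5 in DOX against Unt, -0.36 for Psmb8 over Psmb5 in D_DXZ against Unt, 1.35 for Psmb8 over Psmb5 in D_MgHCF against Unt and 1.70 for Psmb9 over Psmb6 in D_MgHCF against Unt. With quantile normalization of log2(FPKM + 1), added after seeing the data, the log2 difference of the ratios was 1.33 for Psmb8 over Psmb5 in DOX against Unt, 0.97 for Psmb8 over Psmb5 in D_DXZ against Unt, 1.30 for Psmb8 over Psmb5 in D_MgHCF against Unt, -0.030 for Psmb8 over Psmb5 in D_MgHCF against DOX, 1.23 for Psmb9 over Psmb6 in DOX against Unt, 0.72 for Psmb9 over Psmb6 in D_DXZ against Unt, 1.82 for Psmb9 over Psmb6 in D_MgHCF against Unt, 0.59 for Psmb9 over Psmb6 in D_MgHCF against DOX, 0.39 for Psmb10 over Psmb7 in DOX against Unt, 0.30 for Psmb10 over Psmb7 in D_DXZ against Unt and 1.21 for Psmb10 over Psmb7 in D_MgHCF against Unt. Leaving out each library in turn gave 32 to 34 higher and 0 to 1 lower in DOX against Unt, 29 to 31 higher and 1 to 2 lower in D_DXZ against Unt, 6 to 10 higher and 12 to 20 lower in D_MgHCF against Unt, 0 higher and 0 lower in D_DXZ against DOX, 3 to 4 higher and 36 to 37 lower in D_MgHCF against DOX and 3 to 5 higher and 31 to 36 lower in D_MgHCF against D_DXZ. The count of lower genes in DOX against Unt was 0 without Unt replicate 2, Unt replicate 3 or DOX replicate 3, that in D_DXZ against Unt was 1 without Unt replicate 2, Unt replicate 3, D_DXZ replicate 2 or D_DXZ replicate 3, and the counts in D_MgHCF against Unt were 6 higher and 12 lower without Unt replicate 3. The log2 differences of the ratios ranged from 0.37 to 0.67 for Psmb8 over Psmb5 in DOX against Unt, 0.18 to 0.42 for Psmb8 over Psmb5 in D_DXZ against Unt, 2.14 to 2.62 for Psmb8 over Psmb5 in D_MgHCF against Unt, 1.60 to 2.07 for Psmb8 over Psmb5 in D_MgHCF against DOX, -0.55 to -0.0073 for Psmb9 over Psmb6 in DOX against Unt, -0.98 to -0.61 for Psmb9 over Psmb6 in D_DXZ against Unt, 2.22 to 2.38 for Psmb9 over Psmb6 in D_MgHCF against Unt, 2.29 to 2.83 for Psmb9 over Psmb6 in D_MgHCF against DOX, -0.15 to 0.0072 for Psmb10 over Psmb7 in DOX against Unt, -0.24 to -0.083 for Psmb10 over Psmb7 in D_DXZ against Unt, 0.80 to 1.05 for Psmb10 over Psmb7 in D_MgHCF against Unt and 0.86 to 1.12 for Psmb10 over Psmb7 in D_MgHCF against DOX. Libraries of different groups share a replicate number, and whether it pairs them was not established. The correlations of their deviations from the group means ran from -0.41 to 0.42. The lowest was that of D_DXZ and D_MgHCF and the highest that of DOX and D_DXZ, both in replicate 1. With the replicate number as a block the counts were 33 higher and 1 lower in DOX against Unt, 29 higher and 2 lower in D_DXZ against Unt, 10 higher and 20 lower in D_MgHCF against Unt, 0 higher and 0 lower in D_DXZ against DOX, 3 higher and 36 lower in D_MgHCF against DOX and 4 higher and 36 lower in D_MgHCF against D_DXZ. Voom on the recovered reads, another pseudocount, filter or no filter kept every count within 1.5 times. The planned negative binomial count tests were not run, since the deposited unit is not counts. Depth limited Psmb8, Psmb11 and Psmd10, which had few reads in some libraries.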

Other observations

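Genes of antigen processing, which use proteasome products, were counted from a list of 8. In DOX against Unt 3 were higher and 1 lower, beside 18.6% and 19.9% of all genes, and in D_MgHCF against Unt 4 were higher and 1 lower, beside 24.3% and 15.7%. In D_MgHCF against DOX 3 were higher and 4 lower, with a median of -0.86, beside 31.4% and 20.1% of all genes. The 1 lower in D_MgHCF against Unt was Tap2, the partner of Tap1 in the peptide transporter, at -0.76 (SE 0.23, adjusted p = 0.0246). Irf1, a transcription factor of interferon responses that is known to act on Psmb8 and Psmb9, was at 17.5, 17.9 and 18.7 in Unt, 5.75, 2.9 and 1.83 in DOX, 5.5, 3.36 and 1.86 in D_DXZ, and 20.8, 27.8 and 25.2 in D_MgHCF. It was lower in every DOX library than in every Unt library, at -2.18 (SE 0.33, adjusted p = 0.000353), and higher in D_MgHCF than in DOX, at 2.60 (SE 0.33, adjusted p = 0.000101). Tap1, the peptide transporter gene next to Psmb9, was at 7.24, 7.68 and 8.59 in Unt, 8.75, 6.7 and 6.2 in DOX, 5.32, 3.99 and 5 in D_DXZ, and 10.4, 14.2 and 31.5 in D_MgHCF, and its 3 D_MgHCF libraries differed from each other more than any of the other groups did. Tap1 was higher in D_MgHCF than in Unt, at 1.01 (SE 0.31, adjusted p = 0.0259), and by 0.58 without the third D_MgHCF library, still called. Nlrc5, a regulator of class I genes, was at 0.0749, 0.118 and 0.12 in Unt, 0.194, 0.128 and 0.163 in DOX, 0.0511, 0.117 and 0.0794 in D_DXZ, and 0.516, 0.555 and 0.513 in D_MgHCF. It thus stayed below 1 FPKM in every library, and its reads are not given. Its log2 fold change in D_MgHCF against Unt was 0.47 (SE 0.04, adjusted p = 4.27e-05), where 24.3% of all genes were called higher. B2m, the class I light chain, was at 309, 314 and 291 in Unt, 1274, 1778 and 1755 in DOX, 1097, 1613 and 1559 in D_DXZ, and 908, 768 and 582 in D_MgHCF, higher than Unt in both DOX (2.38, SE 0.25, adjusted p = 3.66e-05) and D_MgHCF (1.28, SE 0.25, adjusted p = 0.00278).

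Akirin2, which is known to help carry proteasomes into the nucleus, was at 33.8, 36.6 and 39 in Unt, 5.54, 3.78 and 2.68 in DOX, 14, 7.31 and 4.29 in D_DXZ, and 10.7, 17.6 and 20.2 in D_MgHCF, lower in every DOX library than in every Unt library (-2.94, SE 0.36, adjusted p = 8.78e-05). Ipo9, the importin known to act with it, was at 28.2, 29.9 and 32.3 in Unt, 76.1, 89.4 and 99.7 in DOX, 63.9, 73.1 and 84.3 in D_DXZ, and 24.2, 18.6 and 26.7 in D_MgHCF, higher in DOX by 1.52 (SE 0.15, adjusted p = 2.98e-05).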
